A study of Mus musculus with 2 samples.

Results

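The RNA levels of 9 genes of the epithelial basement membrane were compared in mouse small intestinal organoids grown in type I collagen or in Matrigel. They were taken by symbol from the deposited expression table, and all 9 of 9 were found among its 37172 genes. They are the laminin chains Lama3, Lama5, Lamb1, Lamb2, Lamb3 and Lamc1, the heparan sulphate proteoglycans Agrn and Hspg2, and Col18a1, a collagen that carries heparan sulphate chains. Both cultures started from crypts of the proximal small intestine of C57BL/6 wild-type mice, and the number of animals is not given. The collagen culture was grown in ENRW medium, which held EGF (50 ng/mL), Noggin (100 ng/mL), R-spondin1 (400 ng/mL), Wnt3a (100 ng/mL), nicotinamide (10 mM) and 1% bovine serum albumin, and formed cystic spheres. The Matrigel culture was grown in ENR medium, with the same EGF, Noggin and R-spondin1 and none of the other additions, and formed budding organoids. Cells were collected on day 4, after collagenase for the collagen gels and a cell recovery solution for Matrigel, were tagged through an EpCAM antibody and were sequenced as 1 pooled library. Matrix, medium and release from the gel changed together, so their parts cannot be told apart.

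A basement membrane is the thin sheet of matrix on which an epithelium rests. Its scaffold is built of laminins, which are trimers of an alpha, a beta and a gamma chain and are named by the numbers of their chains, and of a collagen IV network, which nidogens, perlecan (Hspg2) and agrin (Agrn) help to link. In the adult small intestine laminin-511 and laminin-332 are laminins of the epithelial basement membrane, and epithelial cells bind them through integrins and dystroglycan. Matrigel is itself an extract rich in laminin-111, collagen IV, nidogen and perlecan protein, while a type I collagen gel has no basement membrane of its own. The values here are of RNA made by the cells and not of matrix protein.

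After filters, 336 collagen cells and 1599 Matrigel cells held 42540314 and 285201649 counts, with medians of 124619 and 179044 counts per cell. With 1 suspension per culture, no test across samples was possible. Levels are counts summed over the cells of a culture and scaled to 1000000 (CPM), and a summed level cannot tell fewer expressing cells from less RNA per cell. The 95% intervals (exact Poisson for levels, Clopper-Pearson for shares) cover counting error only and not differences between cultures. The epithelial marker Epcam stood at 1458 CPM in collagen cells and 1076 CPM in Matrigel cells. The 16 markers of stromal, endothelial, muscle and immune cells ran from 0.0235 to 7.69 CPM in collagen cells and from 0.0339 to 3.69 CPM in Matrigel cells, with sums of 12.1 and 7.16 CPM. Cd68 was the highest of them in both cultures.

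Among the 9 genes, collagen cells held at least 2-fold more Lama5, Agrn and Col18a1 than Matrigel cells and at least 2-fold less Hspg2, and the other 5 lay within 2-fold. The ratio was taken on the log2 scale after 1 CPM was added to each level, so that changes of genes at low levels are understated. Of all 37172 genes, 2.85% passed 2-fold upwards in collagen cells and 3.06% downwards. Among the 10593 genes that reached 5 CPM in either culture the shares were 8.21% upwards and 8.91% downwards. Of the 9, 6 reached 5 CPM (Agrn, Hspg2, Lama5, Lamb2, Lamb3 and Lamc1). Of these 6, 2 passed 2-fold upwards (Agrn and Lama5) and 1 downwards (Hspg2). The median log2 ratio was 0.50 over the 9 genes, against -0.005 over all 37172 genes. Over the 6 it was 0.63, against -0.02 over all genes that reached 5 CPM.

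**Figure D1:**
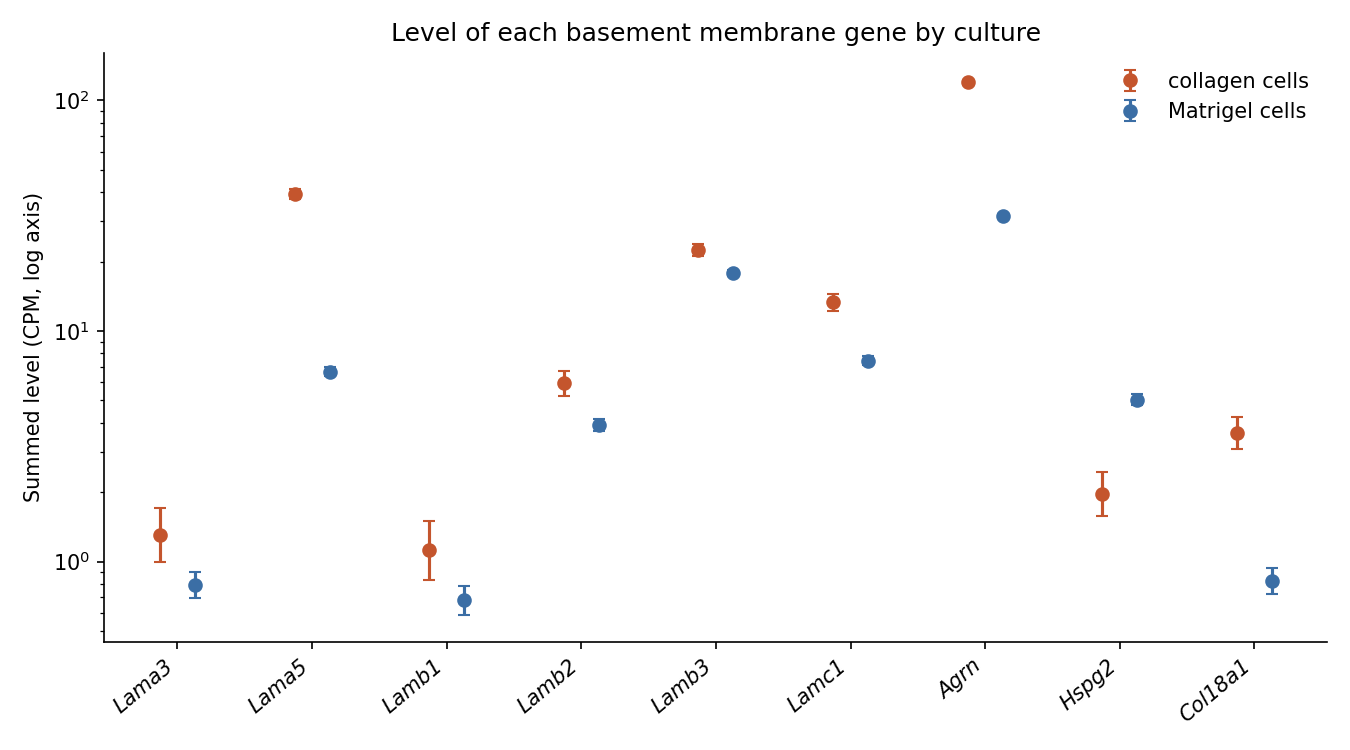
Summed level of each gene in CPM on a log axis in collagen cells (orange) and Matrigel cells (blue), with exact 95% Poisson intervals that cover counting error only. Agrn and Lama5 were the highest of the 9 genes in collagen cells, and Hspg2 alone among the 9 was higher in Matrigel cells.

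The start regions of 4 of these genes show how unlike their promoters are, and they are printed because these genes span the range of responses: Agrn and Lama5 higher in collagen cells, Lamb3 nearly level and Hspg2 lower. Each run is the 250 bases before the annotated start in RefSeq (build GRCm38.p6), read 5′ to 3′ on the gene's strand, and capitals mark GC boxes (GGGCGG or its complement CCGCCC). The coordinates are of that build and not of the GRCm39 build named in the submitters' processing notes. Agrn lies at chr4:156197489-156197738 (minus strand), Lama5 at chr2:180225860-180226109 (minus strand), Lamb3 at chr1:193301744-193301993 (plus strand) and Hspg2 at chr4:137468553-137468802 (plus strand).
Agrn: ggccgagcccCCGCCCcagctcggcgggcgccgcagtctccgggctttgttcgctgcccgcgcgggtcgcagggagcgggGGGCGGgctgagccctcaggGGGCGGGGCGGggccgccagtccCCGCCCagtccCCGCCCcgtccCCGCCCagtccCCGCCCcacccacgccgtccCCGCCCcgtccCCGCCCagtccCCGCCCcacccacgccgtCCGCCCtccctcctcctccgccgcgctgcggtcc
Lama5: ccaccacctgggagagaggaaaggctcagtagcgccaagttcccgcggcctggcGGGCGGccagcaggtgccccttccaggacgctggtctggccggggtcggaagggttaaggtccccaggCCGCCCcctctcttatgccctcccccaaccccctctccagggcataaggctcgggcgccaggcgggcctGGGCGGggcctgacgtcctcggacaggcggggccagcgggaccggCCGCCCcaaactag
Lamb3: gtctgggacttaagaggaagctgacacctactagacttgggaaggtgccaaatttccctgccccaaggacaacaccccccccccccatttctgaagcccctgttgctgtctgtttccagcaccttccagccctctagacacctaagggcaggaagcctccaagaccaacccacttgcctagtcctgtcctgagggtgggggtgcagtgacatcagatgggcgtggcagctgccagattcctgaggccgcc
Hspg2: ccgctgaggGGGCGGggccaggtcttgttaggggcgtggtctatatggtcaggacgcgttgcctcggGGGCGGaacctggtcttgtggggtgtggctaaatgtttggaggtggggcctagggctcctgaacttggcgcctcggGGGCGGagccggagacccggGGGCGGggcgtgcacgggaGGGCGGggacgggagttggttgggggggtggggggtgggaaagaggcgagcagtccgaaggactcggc

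The Agrn window held 12 GC boxes, with overlapping matches counted apart, the Hspg2 window 5, the Lama5 window 4 and the Lamb3 window 0. Of 32851 promoters of the same length, 32.7% held at least 1 GC box and 1.93% at least 5. The GC content was 83.6% for Agrn, 72.4% for Lama5, 70.0% for Hspg2 and 58.8% for Lamb3. A GC-rich window was thus found both for genes higher in collagen cells and for Hspg2, which was lower. The AP-1 motif TGANTCA was in none of the 10 windows of the 7 genes with an entry, against 6.75% of all promoters. The TEAD motif GGAATG, searched on both strands, was in none of the first windows of these genes, against 12.6% of all promoters. A second annotated start of Lamb3 had 1 TEAD match and a second start of Col18a1 had 2. A match describes letters in a window and not a site in use.

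Of the alpha chains, which carry the main receptor-binding domain of a laminin, Lama5 set the cultures apart and Lama3 was low in both. Lama5, the alpha chain of laminin-511 and laminin-521, stood at 39.2 CPM (95% interval 37.4 to 41.1) in collagen cells and 6.65 CPM (6.36 to 6.96) in Matrigel cells. The log2 ratio was 2.39, and the ratio of CPM was 5.90 (5.52 to 6.30). Only 1.31% of the genes that reached 5 CPM had a log2 ratio as high. When every cell was thinned to 77972 counts, which left 264 collagen and 1477 Matrigel cells, Lama5 had a count in 70.8% (65.0 to 76.2) of collagen cells and 27.4% (25.1 to 29.7) of Matrigel cells. Both the share of cells and the summed level were thus higher in collagen cells, and neither pair of intervals overlapped. At least 5 counts were found in 22.4% of collagen cells and 2.10% of Matrigel cells. Without thinning, 74.4% of collagen cells and 43.8% of Matrigel cells had a value above 0.

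Lama3, the alpha chain of laminin-332, stood at 1.31 CPM (0.994 to 1.71) in collagen cells and 0.791 CPM (0.693 to 0.903) in Matrigel cells. The log2 ratio was 0.37, and it was -0.02 when the 5 cells with the most Lama3 counts were left out of each culture. Those 5 cells held 44.9% of the 56 Lama3 counts of collagen cells. After thinning, 7.20% (4.39 to 11.0) of collagen cells and 5.08% (4.02 to 6.32) of Matrigel cells had a Lama3 count, and without thinning 14.3% and 17.9% had a value above 0. As a measure of background, the 16 markers of other cell types had median thinned shares of 1.89% in collagen cells and 1.32% in Matrigel cells. The highest were those of Cd68, at 15.2% and 14.6%, followed by Pecam1, at 9.47% and 8.94%. Over the whole cultures the Lama3 shares lay above those of 14 of the 16 markers and below those of Cd68 and Pecam1, so they cannot be told from background. Within the collagen culture Lama3 was uneven, at 3.78 CPM (2.37 to 5.99) in 44 cells that form cluster 13, described below, and 0.890 CPM (0.592 to 1.27) in the 238 cells of cluster 1. Lama2, an alpha chain known from muscle and mesenchyme, stood above Lama3, at 3.04 CPM in collagen cells and 2.47 CPM in Matrigel cells, with thinned shares of 25.8% and 17.0%.

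**Figure D2:**
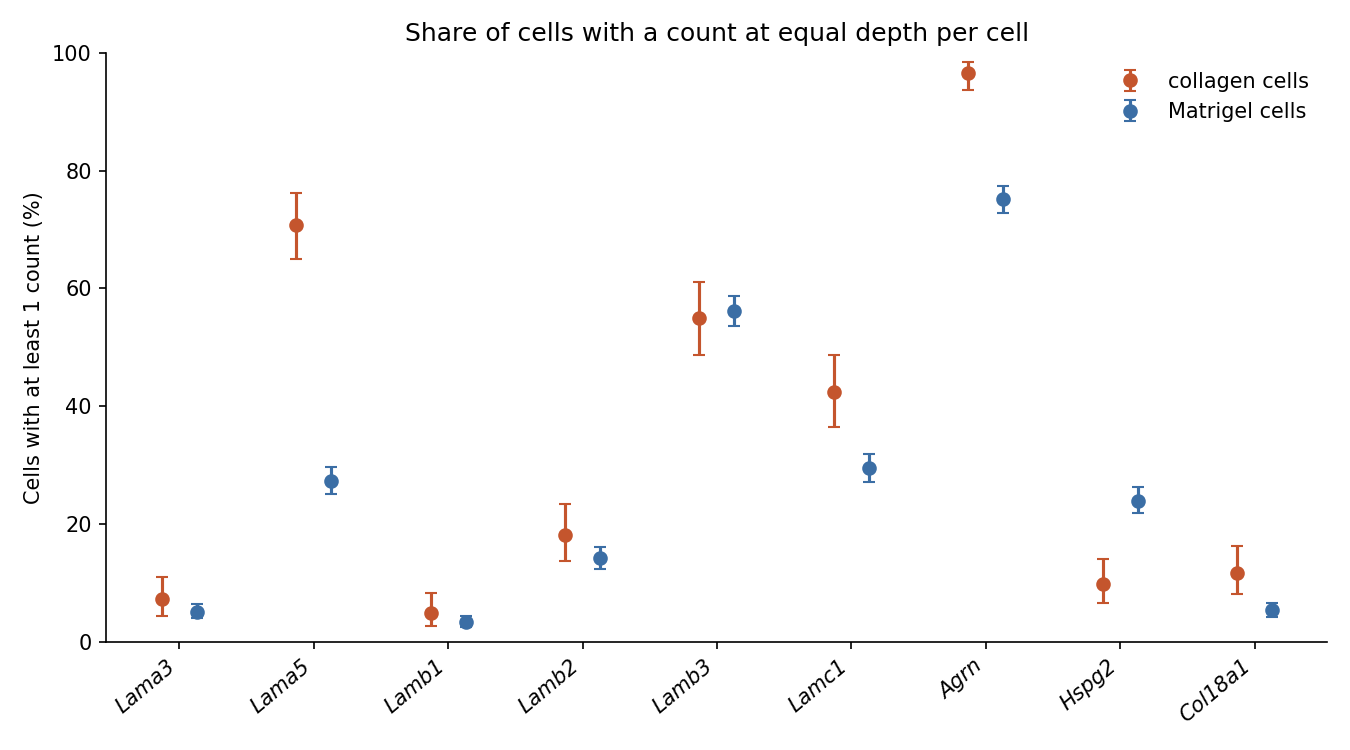
Percent of cells with at least 1 count of each gene after every cell was thinned to 77972 counts, in 264 collagen cells (orange) and 1477 Matrigel cells (blue), with 95% Clopper-Pearson intervals. The widest gap among the 9 genes is that of Lama5 (70.8% of collagen cells, 27.4% of Matrigel cells), and Lamb3 shows overlapping intervals.

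The beta chains stayed within 2-fold. Lamb3, the beta chain of laminin-332, was the most abundant of them, at 22.5 CPM (21.1 to 23.9) in collagen cells and 17.8 CPM (17.4 to 18.3) in Matrigel cells. Its log2 ratio was 0.32, and 29.6% of the genes that reached 5 CPM had a ratio as high. The thinned shares were 54.9% (48.7 to 61.0) of collagen cells and 56.1% (53.6 to 58.7) of Matrigel cells, with overlapping intervals. Without thinning they were 59.5% and 68.5%, the other way round from the summed level.

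Lamb2, the beta chain of laminin-521, stood at 5.92 CPM (5.22 to 6.70) in collagen cells and 3.91 CPM (3.68 to 4.15) in Matrigel cells, a log2 ratio of 0.50. A Lamb2 count was found in 18.2% (13.7 to 23.4) of thinned collagen cells and 14.2% (12.4 to 16.0) of thinned Matrigel cells, and these intervals overlapped. The share in collagen cells lay above those of all 16 markers of other cell types, and that in Matrigel cells above all of them but Cd68. In both cultures most cells had no Lamb2 count, and the cells that had one held a median of 3 counts before thinning. Without thinning, 20.5% of collagen cells and 18.5% of Matrigel cells had a value above 0.

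Lamb1, the beta chain of laminin-511, was the lowest of the 9 genes, at 1.13 CPM (0.832 to 1.50) in collagen cells and 0.680 CPM (0.588 to 0.783) in Matrigel cells. The log2 ratio of 0.34 was 0.003 when the 5 cells with the most counts were left out of each culture, and those cells held 51.2% of the 48 Lamb1 counts of collagen cells. The thinned shares of 4.92% (2.65 to 8.27) of collagen cells and 3.32% (2.46 to 4.36) of Matrigel cells likewise lay above those of 14 of the 16 markers and below those of Cd68 and Pecam1, so over the whole cultures they cannot be told from background. Without thinning, 11.0% of collagen cells and 12.7% of Matrigel cells had a value above 0. Many of the Lamb1 values above 0 were fractional (46.3%), as were 41.4% of those of Lama3, against 1.06% for Agrn.

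Lamc1 was also higher in collagen cells, by less than 2-fold. Lamc1, the gamma chain of laminin-511 and laminin-521, stood at 13.3 CPM (12.3 to 14.5) in collagen cells and 7.45 CPM (7.13 to 7.77) in Matrigel cells. The log2 ratio was 0.76, with a CPM ratio of 1.79 (1.63 to 1.96), and 12.8% of the genes that reached 5 CPM had a ratio as high. A Lamc1 count was found in 42.4% (36.4 to 48.6) of thinned collagen cells and 29.5% (27.2 to 31.9) of thinned Matrigel cells. Without thinning these shares were 45.2% and 43.4%.

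The 2 proteoglycans moved in opposite directions. Agrn, which encodes agrin, a proteoglycan that binds laminin and dystroglycan, stood at 119.5 CPM (116 to 123) in collagen cells and 31.4 CPM (30.8 to 32.1) in Matrigel cells. Its log2 ratio was 1.89, with a CPM ratio of 3.80 (3.67 to 3.94), and 2.28% of the genes that reached 5 CPM had a ratio as high. Agrn was found in nearly every thinned collagen cell, with a share of 96.6% (93.6 to 98.4), against 75.2% (72.9 to 77.3) of thinned Matrigel cells. Without thinning these shares were 92.6% and 84.7%. At least 5 counts were found in 74.6% of thinned collagen cells and 19.5% of thinned Matrigel cells. The median cell held 101 CPM of Agrn in collagen and 24.7 CPM in Matrigel. The lower quartile of collagen cells, 51.4 CPM, lay above the upper quartile of Matrigel cells, 45.3 CPM.

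Hspg2, which encodes perlecan, a large secreted proteoglycan that links laminin and collagen IV, stood at 1.97 CPM (1.58 to 2.45) in collagen cells and 5.04 CPM (4.78 to 5.31) in Matrigel cells. The log2 ratio was -1.02, and the CPM ratio was 0.392 (0.311 to 0.489). Hspg2 had a count in 9.85% (6.54 to 14.1) of thinned collagen cells and 24.0% (21.8 to 26.2) of thinned Matrigel cells, and without thinning in 17.0% and 39.5%. Neither pair of intervals overlapped. The log2 ratio stood just past 2-fold, and in 3 alternative settings it lay between -0.98 and -0.53. The share in collagen cells lay above those of 15 of the 16 markers of other cell types and below that of Cd68, and the share in Matrigel cells lay above all 16.

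Col18a1, which encodes collagen XVIII, the source of the fragment endostatin, stood at 3.62 CPM (3.07 to 4.24) in collagen cells and 0.828 CPM (0.725 to 0.940) in Matrigel cells. The log2 ratio was 1.34, and the CPM ratio was 4.38 (3.55 to 5.38). A Col18a1 count was found in 11.7% (8.12 to 16.3) of thinned collagen cells and 5.35% (4.26 to 6.62) of thinned Matrigel cells, and without thinning in 17.6% and 12.8%. Few cells carried the signal: the 5 collagen cells with the most counts held 35.7% of all Col18a1 counts in that culture. The log2 ratio was 0.97 when 5 such cells were left out of each culture. The share in collagen cells lay above those of 15 of the 16 markers of other cell types and below that of Cd68, and the share in Matrigel cells above 14 of them and below Cd68 and Pecam1.

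**Figure D3:**
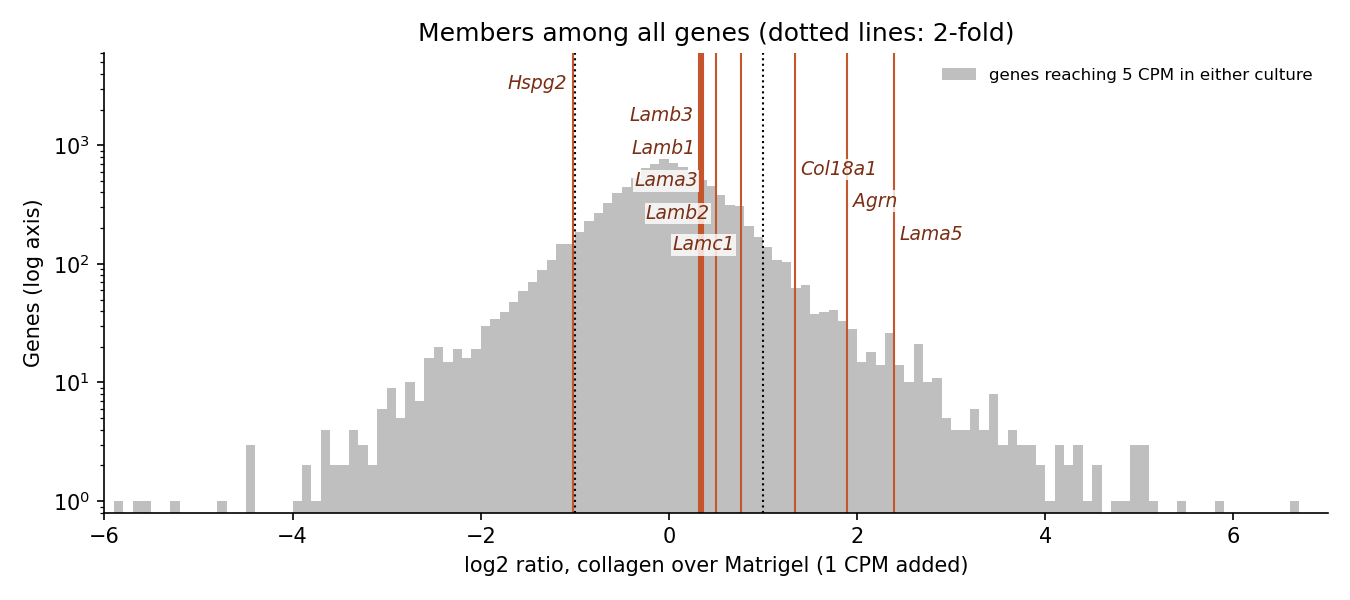
Log2 ratio of collagen over Matrigel (1 CPM added) of the 9 genes as vertical lines, over a histogram of the 10593 genes that reached 5 CPM in either culture, with the number of genes on a log axis. Lama5 (2.39), Agrn (1.89) and Col18a1 (1.34) lie beyond the dotted 2-fold line on the right, Hspg2 (-1.02) lies at the one on the left, and the other 5 lie between 0.32 and 0.76.

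Levels of different chains were compared per kilobase of the longest coding transcript of each gene in GENCODE M21. Whether counts of this library grow with transcript length was not tested, so an order of chains can depend on this scaling. Lama3 stood at 0.124 CPM per kilobase in collagen cells and 0.0750 in Matrigel cells, and Lamb3, a chain of the same trimer, at 4.61 and 3.67. Lama5 stood at 3.44 CPM per kilobase in collagen cells and 0.584 in Matrigel cells, and its partner Lamc1 at 1.75 and 0.977. The beta partners Lamb2 and Lamb1 stood at 1.05 and 0.195 in collagen cells, below Lama5 and Lamc1. In Matrigel cells they stood at 0.695 and 0.118, with Lamb2 above Lama5. Without the scaling by length, Lama5 lay above Lamb2 in Matrigel cells, at 6.65 and 3.91 CPM. The order of the Lama5 and Lamc1 levels differed between the cultures, both per kilobase and in CPM. Agrn was the highest of the 9 per kilobase in collagen cells and in Matrigel cells, at 16.5 and 4.33 CPM per kilobase.

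Few single cells held counts of every chain of laminin-521 or laminin-511. All chains of laminin-521 (Lama5, Lamb2 and Lamc1) were found in 16 of 264 thinned collagen cells (6.06%, 3.50 to 9.66) and 21 of 1477 thinned Matrigel cells (1.42%, 0.882 to 2.17). The product of the single shares, the share that independent detection would give, came to 5.46% for collagen and 1.14% for Matrigel. For laminin-511 (Lama5, Lamb1 and Lamc1) there were 7 collagen cells (2.65%, 1.07 to 5.39) and 7 Matrigel cells (0.474%, 0.191 to 0.974), with products of 1.48% and 0.268%. Every product lay inside the interval of its observed share. These counts were limited by the scarcest chain of each trimer, which was Lamb1 or Lamb2.

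The more abundant chains met more often. Lama5 and Lamc1 were found together in 33.3% of thinned collagen cells and 8.33% of thinned Matrigel cells. None of the laminin-511 chains was found in 18.9% of collagen cells and 50.1% of Matrigel cells. The median cell held counts of 3 of the 9 genes in collagen and 2 in Matrigel, and the highest number was 6 in both. No count of any of the 9 was found in 1 collagen cell (0.379%) and 51 Matrigel cells (3.45%). At least 5 of the 9 were found in 26 collagen cells (9.85%) and 68 Matrigel cells (4.60%).

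Across cells within a culture, the 9 genes were mostly not correlated. Over the 36 pairs, Pearson's r of log2(count + 1) in thinned cells had a median of -0.01 in collagen cells (range -0.16 to 0.24) and 0.02 in Matrigel cells (range -0.06 to 0.08). In collagen cells 2 pairs exceeded 0.2, Lama5 with Agrn (r = 0.24) and Lama5 with Lamb3 (r = 0.23), and 0 pairs did in Matrigel cells. Cells of 1 culture share a suspension and a library, so these values are given as a description, and correlations this weak in sparse counts are no finding. Lamb3 had a count in 62.0% of the 187 collagen cells with Lama5 and in 37.7% of those without it. The 2 genes were found together in 43.9% (37.9 to 50.2) of collagen cells, where the product of the shares was 38.9%, and in 16.5% (14.6 to 18.4) of Matrigel cells, where the product was 15.4%.

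In cells at their own depth Lama5 with Lamb3 gave 0.17 in collagen cells. Within the largest group of collagen cells described below, Lama5 with Agrn gave 0.21 over 208 cells and Lama5 with Lamb3 gave 0.17. Lama5 with Hspg2 gave -0.14 over all thinned collagen cells and -0.10 within that largest group. Hspg2 had a count in 6.95% of the thinned collagen cells with Lama5 and 16.9% of those without. Only 13 of these cells held both genes, so this weak value is no finding either.

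**Figure D4:**
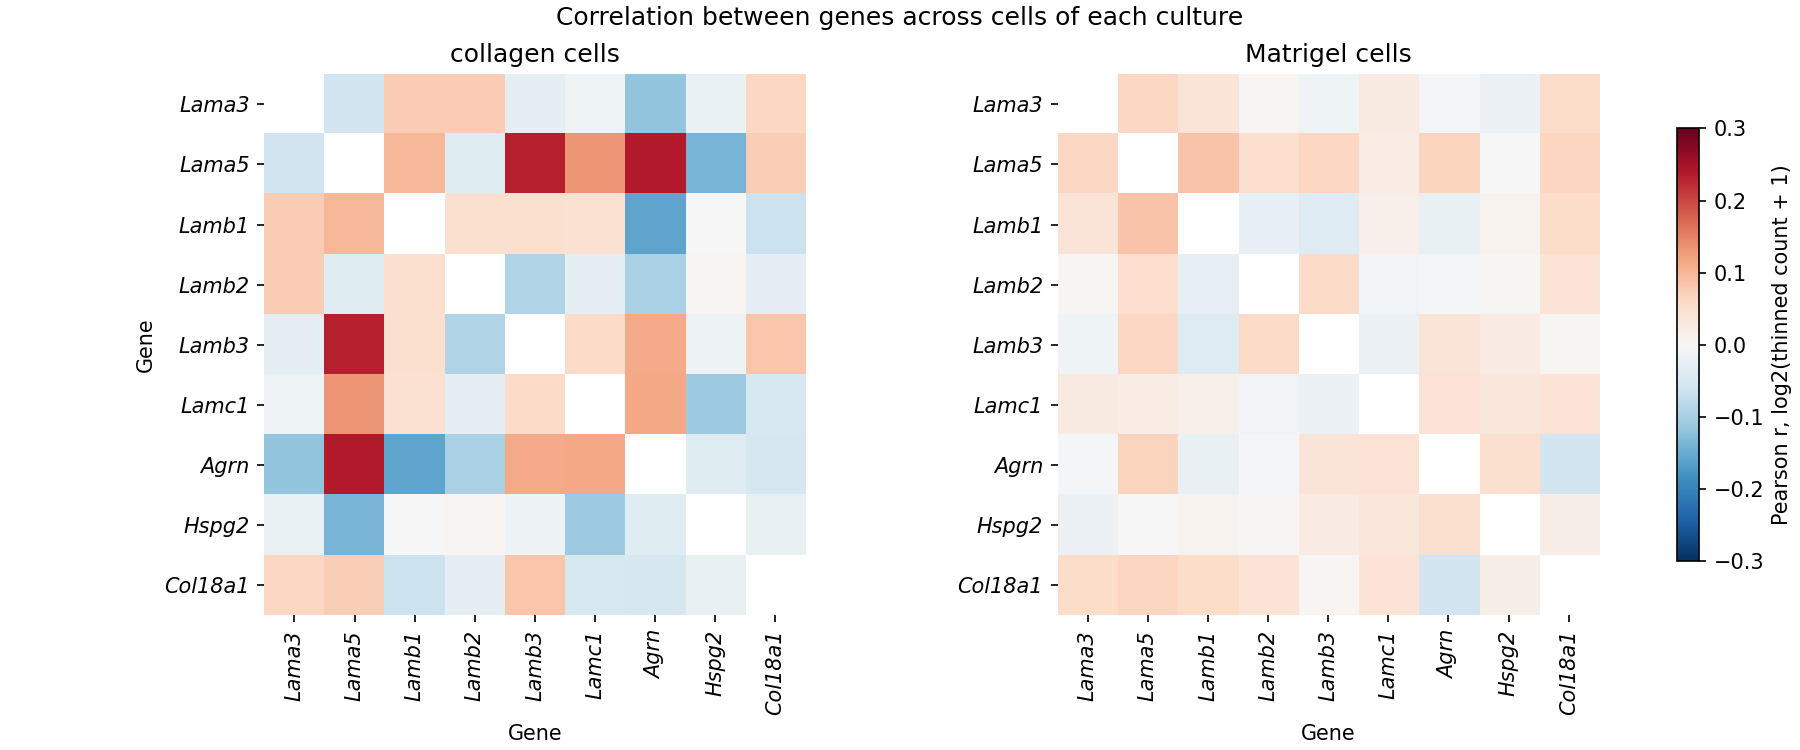
Pearson correlation of log2(thinned count + 1) between the 9 genes, across 264 collagen cells (left) and 1477 Matrigel cells (right), with red for positive and blue for negative values. The strongest squares in collagen cells are those of Lama5 with Agrn (0.24) and with Lamb3 (0.23), and no pair reached 0.1 in Matrigel cells.

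The genes most like Lama5 across the 264 thinned collagen cells, among 9728 genes with a count in at least 20% of them, were Anxa3 (r = 0.40), Cxcl16 (0.38), Lmo7 (0.37), Plat (0.37) and 1700016C15Rik (0.34). Plat encodes tissue plasminogen activator, a protease of the cell surface and matrix. For Agrn they were Wwc1 (0.42), Ahnak (0.41), S100a10 (0.40), Ano1 (0.39) and Actb (0.38). For Lamb3 they were Rhoc (0.30), Lgals3 (0.30), Anxa5 (0.30), Cxcl16 (0.29) and Krt18 (0.29). In the 1477 Matrigel cells, with 10165 genes compared, the values were lower. The genes most like Lamb3 there were Pdgfa (0.24), Edn1 (0.19), Atf3 (0.17), Tmsb4x (0.17) and Emp2 (0.16). Those most like Agrn were Bsg (0.18), Ptprf (0.14), Aldoc (0.13), Trim27 (0.13) and Ifngr1 (0.12).

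The cells were next grouped into 15 clusters at a resolution of 1, without the 9 genes and the lists named here. Collagen cells and Matrigel cells fell into different clusters, and no cluster held at least 20 cells of both cultures. Collagen cells lay mainly in cluster 1 (238 cells, with Wfdc2, Msln, S100a6 and Efemp1 among its leading genes), cluster 13 (44 cells, led by Sprr1a, Plat, Il1rn, Mxd1 and F3) and cluster 15 (25 cells, led by Ly6d, Sprr1a, Anxa10, Mup20 and Cryab). Cluster 15 was shallow, with a median of 45570 counts per cell, as was the Matrigel cluster 9, with 43752. Thinning left 2 of the 25 collagen cells of cluster 15 and 24 of the 93 Matrigel cells of cluster 9. The thinned shares and correlations thus hardly cover cluster 15. Among the Matrigel clusters, cluster 11 (65 cells) was enterocyte-like, with Sis, Rbp2 and Fabp1 among its 10 leading genes. Cluster 12 (46 Matrigel and 9 collagen cells) was led by Chgb, Cck, Gcg, Tac1 and Chga but also held Paneth cell defensin genes, and is given by its number.

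Agrn was higher in each of the 3 collagen clusters than in any Matrigel cluster, at 118 CPM in cluster 1, 183 in cluster 13 and 48.5 (37.5 to 61.9) in cluster 15, against 24.9 to 44.7 CPM in the 12 Matrigel clusters. The interval of cluster 15 overlapped that of Matrigel cluster 9 (39.4 to 50.5). Lama5 stood at 34.9, 80.0 and 20.7 CPM in collagen clusters 1, 13 and 15. Its Matrigel levels spread widely, with 1.29 CPM (0.701 to 2.07) in the enterocyte-like cluster 11 and 31.4 CPM (26.7 to 36.5) in cluster 12. The level of Matrigel cluster 12 lay above that of collagen cluster 15. At a resolution of 0.5 the highest collagen cluster held 41.0 CPM of Lama5 and 127 CPM of Agrn. In the enterocyte-like cells 8.62% of 58 thinned cells had a Lama5 count and 74.1% had an Agrn count, at a median of 202614 counts per cell.

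Collagen cluster 13 held a larger share of the counts of several laminin chains than of the cells. With 13.1% of the collagen cells, it held 35.0% of the Lama3 counts, 24.7% of the Lama5 counts, 24.6% of the Lamb3 counts and 24.5% of the Lamc1 counts. Lamb3 stood at 45.6 CPM in cluster 13 and 45.7 CPM in cluster 15, against 18.9 CPM in cluster 1 and 11.2 to 28.6 CPM in the Matrigel clusters. Lamc1 stood at 27.0 CPM in cluster 13, 11.5 in cluster 1 and 2.34 in cluster 15, against 5.46 to 29.1 CPM in the Matrigel clusters, with the highest in the shallow cluster 9.

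Lamb1 was concentrated in cluster 12. The 46 Matrigel cells of that cluster held 20.9% of the Matrigel Lamb1 counts in 2.88% of the cells, at 7.75 CPM (5.62 to 10.6), and the other Matrigel clusters stood at 0.280 to 2.49 CPM. The 9 collagen cells of cluster 12 held 41.8% of the collagen Lamb1 counts. Without cluster 12 the log2 ratio of Lamb1 between the cultures was 0.11. Lamb2 followed another pattern: among Matrigel clusters it was lowest in the enterocyte-like cluster 11 (0.613 CPM, 0.235 to 1.21) and highest in cluster 10 (8.50 CPM, 7.08 to 10.1), which was led by Defa30, Defa37, Defa2, Brca1 and Defa36. A Lamb2 count was found in 1.72% of thinned cells of cluster 11 and 25.9% of those of cluster 10. Hspg2 stood at 0.690 to 1.91 CPM in the collagen clusters and at 0.869 to 10.8 CPM in the Matrigel clusters, where clusters 12 and 14 were the lowest. The highest was the shallow cluster 9, followed by cluster 10 at 6.31 CPM. Col18a1 stood at 3.37 to 10.5 CPM in the collagen clusters, and in Matrigel cells it was highest in clusters 12 (4.43 CPM) and 14 (4.06 CPM, led by Clca1, Sh2d6, Rgs13, Irag2 and Dclk1). The other 10 Matrigel clusters held 0.437 to 1.57 CPM of Col18a1.

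**Figure D5:**
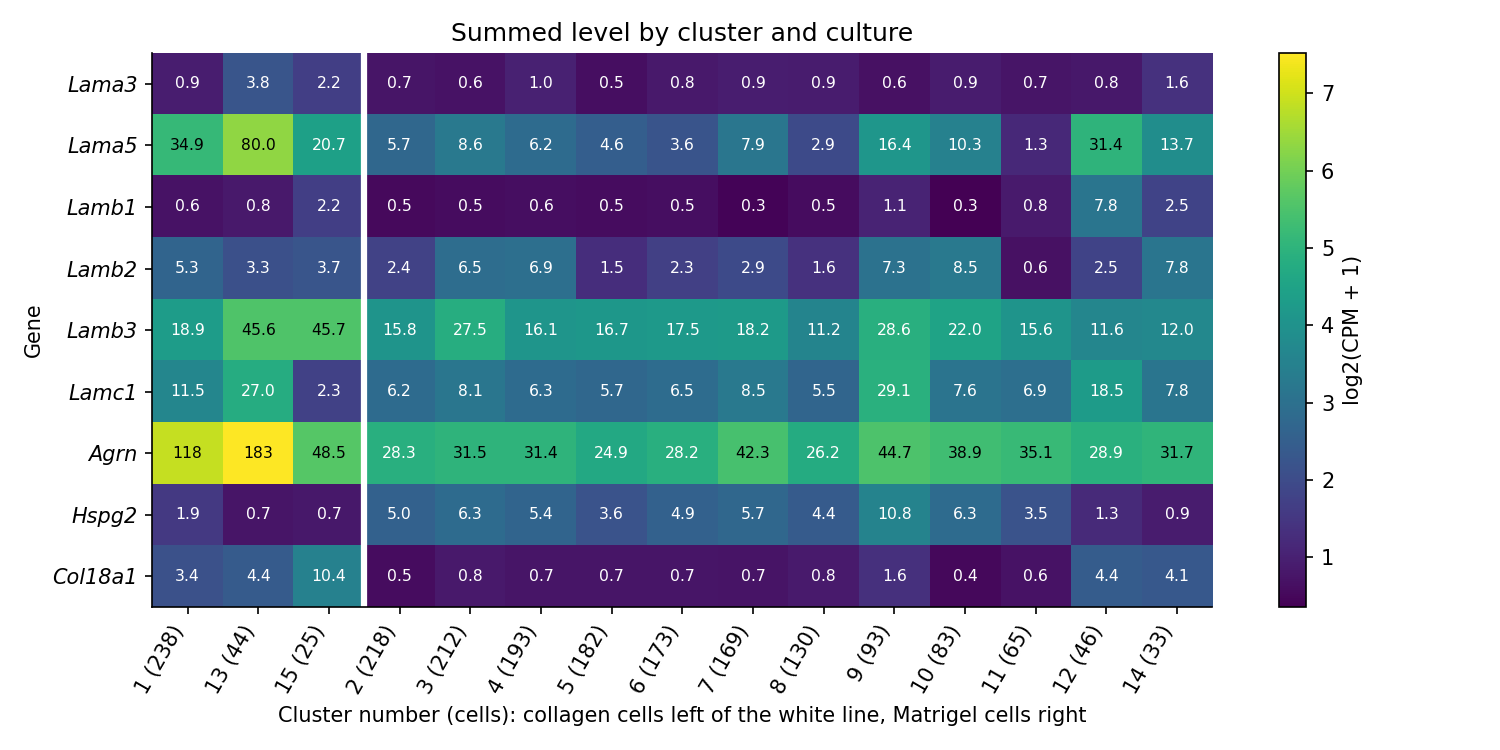
Summed level of each gene in CPM (printed number) by cluster, with colour for log2(CPM + 1); the 3 collagen clusters are left of the white line and the 12 Matrigel clusters right of it, with the number of cells in brackets. Agrn is brightest in collagen clusters 1 and 13, and Lama5 and Lamb1 stand out among Matrigel clusters in cluster 12.

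The other genes of the basement membrane did not all follow Lama5 and Agrn. Of 33 such genes outside the 9, 10 reached 5 CPM. Of these, 5 passed 2-fold upwards in collagen cells, 3 passed it downwards and 2 lay within it. Their median log2 ratio was 0.92, and over all 33 genes it was 0.07. Over all genes that reached 5 CPM, 8.21% passed 2-fold upwards and 8.91% downwards. The major collagen IV chains were among the higher genes. Col4a1 stood at 5.27 CPM in collagen cells and 0.510 CPM in Matrigel cells (log2 ratio 2.05), and Col4a2 at 7.90 and 0.432 CPM (2.63). The small cluster 15 held 30.6 CPM of Col4a1 and 50.8 CPM of Col4a2. Tinagl1, a matrix protein related to Tinag, stood at 49.99 CPM in collagen cells and 7.34 CPM in Matrigel cells (2.61), and Npnt, the integrin ligand nephronectin, at 24.3 and 8.75 CPM (1.37). Nid1, a nidogen, stood at 3.16 CPM in collagen cells and 0.665 CPM in Matrigel cells (1.32), and Nid2 at 3.35 and 3.15 CPM (0.07).

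The lower genes were Fras1, at 1.94 CPM in collagen cells and 10.2 CPM in Matrigel cells (-1.93), Smoc2, at 64.5 and 199 CPM (-1.61), and Papln, at 4.90 and 13.7 CPM (-1.32). Fras1 is a basement membrane protein of developing epithelia, and Smoc2 is also a marker of intestinal stem cells. Tinag (0.47) and Fbln1 (0.08) lay within 2-fold. Levels of the 4 other laminin chains measured were low in both cultures: Lama1, Lama2, Lama4 and Lamc3 ranged from 0.345 to 3.04 CPM in collagen cells and from 0.342 to 2.47 CPM in Matrigel cells.

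Of 22 receptors and anchors of the matrix, 19 reached 5 CPM, of which 6 passed 2-fold upwards in collagen cells, 1 passed it downwards and 12 lay within it (median log2 ratio 0.54). Over all genes that reached 5 CPM, the shares were 8.21% upwards and 8.91% downwards. Itgb4, the integrin chain that binds laminin-332 as a partner of Itga6, stood at 53.2 CPM in collagen cells and 16.6 CPM in Matrigel cells (1.62). Plec and Dst, linkers to keratin filaments, had log2 ratios of 1.32 and 1.18. Itga3, the alpha chain of another laminin receptor, stood at 37.3 CPM in collagen cells and 13.9 CPM in Matrigel cells (1.36), Itgav at 20.9 and 6.60 CPM (1.53), and Bcam, a receptor of laminin alpha-5, at 10.6 and 3.66 CPM (1.32). Itga6 (-0.26), Itgb1 (0.57) and the agrin receptor Dag1 (-0.04) lay within 2-fold, and Sdc2 was lower (-1.08).

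Of 24 genes for the synthesis and trimming of heparan sulphate and of the dystroglycan sugar chain, 19 reached 5 CPM, and 0 passed 2-fold upwards in collagen cells and 1 downwards. Their median log2 ratio was 0.04. The shares over all genes that reached 5 CPM were 8.21% upwards and 8.91% downwards. Counts of 0 or 1 in lists this short are therefore no result about the list. Of 15 genes for proteases of the matrix and their inhibitors, 6 reached 5 CPM, with 1 higher and 1 lower (median 0.21). Ctsl, a cathepsin, was the higher one, at 125 CPM in collagen cells and 36.2 CPM in Matrigel cells (1.76). Prss12, which encodes neurotrypsin, a protease known to cut agrin at synapses, was the lower one, at 0.380 and 7.65 CPM (-2.65), with a count in 1.89% of thinned collagen cells and 28.1% of thinned Matrigel cells. Of 11 genes for collagen folding and secretion, 7 reached 5 CPM, with 1 higher, the prolyl hydroxylase gene P4ha1, at 61.9 CPM in collagen cells and 25.2 CPM in Matrigel cells (1.26), and 0 lower (median 0.45).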

How the data were processed

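Per the labels' protocols, BD Rhapsody beads from both cultures together gave 1 cDNA library and 1 hashtag library, each amplified by TAS-Seq. The submitters' processing notes name the GRCm39 build, STARsolo 2.7.10a, cutadapt 4.1 and R 4.2.1, with no role or order. The deposited expression table holds expected counts per gene and cell, not scaled, for 37172 genes and 2090 cells. Of its values above 0, 75.6% were whole (within 1e-06). Collapsing of copies by molecule is not given in the sources used, so intervals may be too narrow. In the first 49 genes of the table low values were absent, and 0 of the 9 genes were among them. The deposited hashtag table holds whole-number counts for 200497 barcodes, and 9 of its hashtag columns were not used. Cell names gave the culture (336 collagen, 1615 Matrigel), no 2 cells shared a barcode, and 139 cells named as doublets were left out of the main comparisons. No doublet caller was run.

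A filter at 500 genes and 30% mitochondrial counts took out 16 Matrigel cells. Counts were summed per culture, scaled to CPM and rounded for intervals (scipy 1.17.1). Another scaling, by the median of ratios, shifted all log2 ratios by about 0.02. For shares and correlations, each cell was thinned to 77972 counts (percentile 10), which left out 72 collagen and 122 Matrigel cells. Clusters came from 2000 variable genes, 30 components and 15 neighbours (scanpy 1.11.5, leidenalg 0.10.2), and levels are given for at least 20 cells. Markers of cell types were fixed in one list, and only cluster 11 is named from it. Promoter sequences came from RefSeq and 7 of the 9 genes had an entry. The log2 ratios and their intervals were tested on simulated data, only for genes of at least 20 CPM over both cultures together. Most of the 9 genes lie below that level. Correlations were tested on simulated pairs of genes, while shares, trimer counts and cluster levels were not tested in this way.

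The 9 genes and all lists were chosen with earlier results of these data known. Besides the 9, the genes named were Nid1, Nid2, Col4a1, Col4a2, Itga3, Itga6, Itgb1, Itgb4 and Dag1, up to 6 others of each list that reached 5 CPM with the largest absolute log2 ratio, the 5 genes most correlated with each of the 9 found in at least 50% of thinned cells, and the 5 leading genes of a cluster. Some genes that this rule names are not reported here, and they stand only in the counts. Lama1, Lama2, Lama4, Lamc3 and Epcam are given as background, outside that rule.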

Additional observations from a re-analysis of the deposited data

How the results depend on the processing

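No paired analysis was possible because each culture was 1 suspension, and for the same reason no replicate could be left out. Over 12 alternatives the log2 ratio ran from 1.92 to 2.54 for Lama5 and from 1.77 to 1.93 for Agrn, past 2-fold in each, while Lamb2, Lamb3 and Lamc1 stayed higher in collagen cells within 2-fold. Col18a1 ran from 0.56 with 5 CPM added to 2.00 with 0.1 CPM added, and Hspg2 from -1.31 to -0.53 with those settings. The number of the 9 genes at least 2-fold lower in collagen cells was 0 in place of 1 with a hashtag share of at least 60% setting the culture, with 5 CPM added, and without the shallow clusters 9 and 15, an alternative chosen after seeing the data, as was leaving out cluster 12. The hashtag alternatives took in cells named as doublets. At 60% these were 49 of 384 collagen and 54 of 1653 Matrigel cells, and at 95% 5 of 324 and 0 of 1536. With a filter at 20 CPM, 6 basement membrane genes outside the 9 were left, with 3 higher and 1 lower. The shares over all genes were not computed at that filter, so these counts are no result about the list. Without thinning, 1 pair exceeded a correlation of 0.2 in collagen cells. At a clustering resolution of 0.5 the highest cluster held 41.0 CPM of Lama5 and 126.9 CPM of Agrn among collagen cells, and 22.3 CPM of Lama5 among Matrigel cells. Beyond the construction of each alternative, the cause of these changes was not tested. Depth limits Lamb1, Lama3 and Hspg2 most in the 336 collagen cells, with 48, 56 and 84 counts.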

Other observations

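The 137 kept cells named as doublets entered no main comparison, though some of them entered the hashtag alternatives above. Together the 137 cells held 48.8 CPM of Agrn (95% interval 46.0 to 51.7), 11.5 CPM of Lama5 (10.2 to 13.0), 23.4 CPM of Lamb3 (21.5 to 25.5), 7.51 CPM of Lamc1 (6.44 to 8.73) and 4.08 CPM of Hspg2 (3.28 to 4.98). For Agrn, Lama5, Lamc1 and Hspg2 these levels lay between those of the collagen cells and the Matrigel cells. That of Lamc1 was close to the Matrigel level of 7.45 CPM. The level of Lamb3 lay above both, with an interval that overlapped that of the collagen cells.

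Nid1, which encodes a nidogen that links laminin to collagen IV, was spread unevenly over the Matrigel cells. Cluster 6, led by Dmbt1, Cfhr2, Myl7, Alpi and Atf5, held 33.1% of the Matrigel Nid1 counts in 10.8% of the cells, at 1.83 CPM, in a gene with a thinned share of 8.19% there. The collagen clusters 1, 13 and 15 held 2.99, 4.07 and 11.2 CPM of Nid1.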
